A study of Arabidopsis thaliana with 9 samples.

Results

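The genes described here were those whose mRNA level stood highest in homozygous ago3-3, intermediate in heterozygous and lowest in wild-type siliques of Arabidopsis thaliana, accession Columbia-0. Siliques are the fruits that hold the developing seeds, and per the labels they were taken 1 to 5 days after pollination. The gene under study is ARGONAUTE 3 (AGO3), with the mutant allele ago3-3. Of 6 mRNA libraries, 2 were of homozygous mutants, 2 of heterozygotes and 2 of wild type, each a biological sample by the series' own wording. The labels give ago3-3 as the genotype of both mutant groups, and the sample titles set homozygous apart from heterozygous. How the flowers were pollinated is not given in the labels used here, so the genotype of the seeds inside each fruit is not known. Levels are in counts-per-million (CPM), the deposited estimated counts divided by the total of their library. A gene was a member when its mean over the 6 libraries was at least 5 CPM, both homozygous values lay above both heterozygous values, both heterozygous values lay above both wild-type values, and the homozygous mean was at least 1.3 times the wild-type mean. Of the 34262 rows of the table, 15970 reached the mean level, 521 of these (3.26%) had the stepwise order, and 161 (1.01%) also reached the ratio.

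ARGONAUTE proteins bind small RNAs (sRNAs) and are guided by them to matching transcripts or to loci from which matching transcripts are made, where they bring about cleavage, translational repression or silencing of chromatin. AGO3 lies beside its close paralogue AGO2 on chromosome 1. In plants heterozygous for a mutant allele the dose of the functional gene is intermediate, and the rule orders transcripts along that dose. In whole fruits, fewer cells of a type and less RNA per cell cannot be told apart.

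The dose itself was checked first. AGO3 mRNA stood at 2.19 and 3.36 CPM in homozygous siliques, 12.3 and 12.4 CPM in heterozygous siliques, against 31.0 and 16.25 CPM in wild type. The 3 genotypes did not overlap, and the 2 wild-type libraries lay further apart than the 2 of either mutant group. In the edgeR fit over all tested genes, homozygous siliques lay -3.15 ± 0.31 (SE) from wild type on the log2 scale, heterozygous siliques lay -0.96 ± 0.28 from wild type, and homozygous siliques lay -2.19 ± 0.31 from heterozygous ones.

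Because the levels in all 6 libraries chose the members, their order and their distance from wild type describe the choice and are not tested. The median level, which the rule limits from below, was 14.6 CPM in members and 25.8 CPM in all genes that reached it. The ratio of homozygous to wild-type mean ran from 1.303 to 2.40, with a median of 1.39. It reached 2 in 3 members and 1.5 in 37, and 86 members lay under 1.4. Heterozygous siliques held a median of 1.203 times the wild-type level, and homozygous siliques a median of 1.16 times the heterozygous level. On a scale where wild type is 0% and homozygous is 100%, the heterozygous mean lay at a median of 50.7%, and the middle of the distribution, between the quartiles, ran from 39.9% to 59.6%. The most uneven steps belonged to AT3G47590, whose heterozygous mean lay at 12.1%, and to AT5G47020, where it lay at 90.2%. Most members were thus modest differences with a heterozygous level near the middle, as the rule itself favours.

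**Figure D1:**
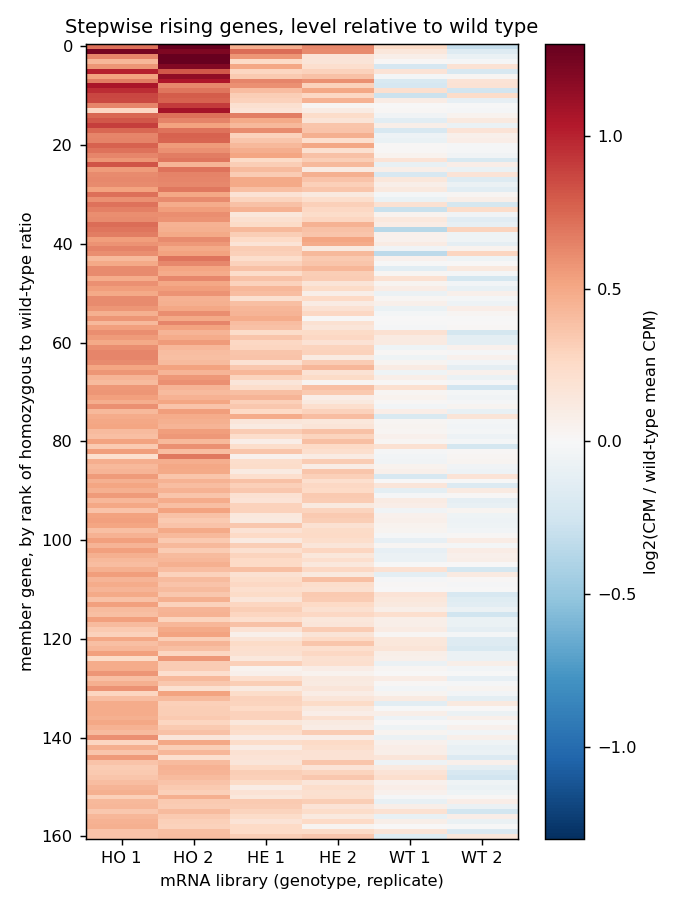
Level of the 161 members in each mRNA library, as log2 of CPM over the wild-type mean; columns are the homozygous (HO), heterozygous (HE) and wild-type (WT) libraries and rows are genes ranked by the ratio of homozygous to wild-type mean. The ratios run from 2.40 at the top to 1.303 at the bottom, and some of the top rows are darker in homozygous replicate 2 than in replicate 1.

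How many genes had this order depended on how the libraries were scaled. By the column total, 161 genes met the rule upward and 34 met its mirror image, with wild type highest and homozygous lowest. With TMM scaling, which sets the typical gene equal between libraries, the counts were 53 upward and 75 downward, and 50 of the 53 were among the 161 members, 31.1% of the members and 94.3% of the TMM list. On the column-total scale the median of all 15970 genes was 0.09 higher in homozygous than in wild-type siliques (log2), and 69.3% of them were higher, whereas with TMM the median was 0.00 and 50.7% were higher. The median of the members on these scales was 0.48 and 0.39. Wild type replicate 2 had the lowest TMM factor, 0.921 against 0.977 to 1.04 in the other 5 libraries, and the highest share of structural RNA, 9.49% against 3.70% to 6.602%. Without structural RNA rows in the total, 104 genes met the rule upward and 39 downward. The part of library composition in the choice of the members was not tested beyond these counts.

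**Figure D2:**
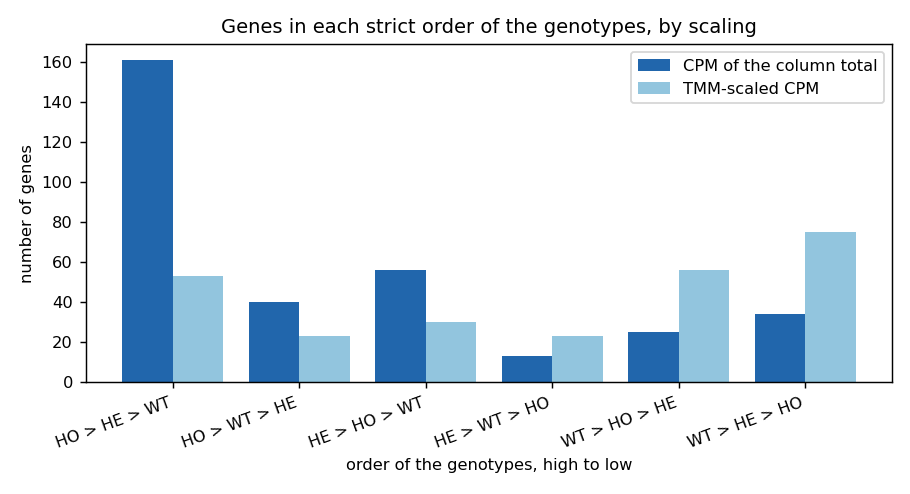
Number of genes in each strict order of the 3 genotypes with a top to bottom ratio of at least 1.3, by CPM of the column total (dark) and by TMM-scaled CPM (light). The order of homozygous above heterozygous above wild type holds 161 genes by the column total and 53 by TMM, and the opposite order holds 34 and 75.

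In most members the smaller of the gaps between neighbouring genotypes was within counting error. The median count of a member was 491 per library, at which counting alone gives a relative SD of 4.51%, or 6.38% for the difference of 2 libraries. The lowest homozygous value exceeded the highest heterozygous value by a median of 6.61%, and the lowest heterozygous value exceeded the highest wild-type value by a median of 8.18%. The smaller of the 2 gaps was within the counting SD of a difference in 114 members, and both gaps exceeded it in 47. At the edge of the ratio, VHA-E3 (a subunit of the vacuolar proton pump), AT1G03150 and AT5G45430 were just inside at 1.303 to 1.304, and STH, GLT1 (a glutamate synthase) and AT1G73970 were just outside at 1.297 to 1.298.

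The replicates allow a view of the order in libraries that did not choose the genes. Genes chosen on replicate 1 alone, by the same order and ratio, numbered 1447, and 273 of them (18.9%, exact 95% interval 16.9% to 21.0%) had the same order in replicate 2. Among all 15970 genes, 32.1% had that order in replicate 2. Genes chosen on replicate 2 numbered 2065, and 372 of them (18.0%, interval 16.4% to 19.7%) had the order in replicate 1, beside 24.9% of all genes. These shares rest on which libraries carry the same number, and the labels do not say whether the numbers pair the samples. On the first principal component the homozygous and wild-type libraries of the same number lay on opposite sides (-25.3 and 49.9 for replicate 1, 44.2 and -21.7 for replicate 2), so the shares do not tell whether the order would repeat in further samples. The intervals treat genes as if they were independent, which they are not.

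The library facts that touch the members are these. Totals ran from 30338416 counts in wild type replicate 2 to 36258980 in wild type replicate 1. Along the first principal component, with 37.3% of the variance, a wide distance set homozygous replicate 2 (44.2) and wild type replicate 1 (49.9) apart from the other 4 libraries (-27.1 to -20.0). Of 16 listed pollen markers, 12 were in the mRNA table, none at 0. Their sums were 161 and 106 CPM in homozygous siliques, 196 and 285 CPM in heterozygous siliques, against 258 and 187 CPM in wild type, so both homozygous libraries were the lowest. Summed embryo and seed maturation markers, 24 genes with EM1 at 0, were 396 and 155 CPM in homozygous siliques, 279.8 and 526 CPM in heterozygous siliques, against 147 and 256 CPM in wild type. Summed petal and stamen markers were 210.1 and 191 CPM in homozygous siliques, 198 and 209 CPM in heterozygous siliques, against 219.9 and 217 CPM in wild type. Marker sums of endosperm, seed coat, fruit wall and photosynthetic tissue overlapped between homozygous and wild-type siliques. The part of pollen, petal, stamen and seed RNA in the members' levels was not tested.

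All 161 members passed edgeR's expression filter and entered the fit over 22702 genes. Their median log2 difference in that fit was 0.39 between homozygous siliques and wild type, 0.22 between heterozygous siliques and wild type, and 0.18 between homozygous and heterozygous siliques, beside 0.01, -0.00 and 0.01 over all tested genes. The quasi-likelihood test of edgeR called 0 members in each of the 3 comparisons at an adjusted p under 0.05, and 0% of all tested genes. At an unadjusted p under 0.05, 109 members were higher in homozygous than in wild-type siliques, where 2.13% of all genes were. In heterozygous siliques 12 members were higher than in wild type (1.8% of all genes), and 7 members were higher in homozygous than in heterozygous siliques (1.42%). DESeq2 called 5 members higher in homozygous siliques than in wild type, namely HIS4, TIFY7, SPX1, EXPA1 and AT1G21440, where it called 0.465% of all genes and 0.0612% as higher. It called 0 of the 35 members that had an adjusted p when heterozygous siliques were set against wild type (0.235% of all genes, 0.0261% higher). It called 0 of 161 when homozygous were set against heterozygous siliques (0.111%, 0.0242% higher). The rule used these same contrasts, so nothing about the members is read from the counts. Nothing beyond the series' word biological says that the libraries came from separate plants, so the tests measure the spread between these samples.

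Jasmonate genes stood near the head of the ranking. Jasmonates are lipid-derived hormones of wounding, defence and stamen development; they act by removing JAZ repressors from MYC transcription factors, and the same response switches on both the synthesis and the breakdown of the hormone. A list of jasmonate synthesis, turnover and response genes was drawn up after values had been seen. On it, 5 of the 27 genes at the mean level were members, where 1.01% of all genes at that level were. Because the list followed the values, nothing is read from that count. A shorter list of jasmonate and defence genes, not among those added later, held 1 member, VSP1, of 12 genes at that level.

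OPCL1, a peroxisomal CoA ligase of jasmonate synthesis, stood at 27.0 and 47.4 CPM in homozygous siliques, 25.2 and 24.1 CPM in heterozygous siliques, against 22.5 and 22.2 CPM in wild type. TIFY7, the repressor JAZ9, stood at 159 and 287 CPM in homozygous siliques, 152 and 116 CPM in heterozygous siliques, against 108 and 96.2 CPM in wild type. CYP94C1, a cytochrome P450 that oxidises the active jasmonate conjugate, stood at 19.7 and 18.2 CPM in homozygous siliques, 17.1 and 15.1 CPM in heterozygous siliques, against 10.3 and 14.8 CPM in wild type. In OPCL1 and TIFY7, homozygous replicate 2 was far above every other library and homozygous replicate 1 was only just above heterozygous replicate 1, while in CYP94C1 the homozygous libraries were close together. Among the response genes, VSP1, a vegetative storage protein that jasmonate induces, had the largest ratio of all members, 2.40, with 649 and 1243 CPM in homozygous siliques, 547 and 606 CPM in heterozygous siliques, against 468 and 319.9 CPM in wild type. CLH1, a jasmonate-inducible chlorophyllase, stood at 59.1 and 113 CPM in homozygous siliques, 52.4 and 49.5 CPM in heterozygous siliques, against 44.5 and 43.4 CPM in wild type. Homozygous replicate 2 was the highest library for both, and the heterozygous libraries of both lay nearer to homozygous replicate 1 than that library lay to homozygous replicate 2.

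The log2 difference of homozygous against wild-type siliques was 1.19 ± 0.29 (SE) for VSP1, 1.05 ± 0.28 for TIFY7, 0.89 ± 0.27 for CLH1, 0.65 ± 0.24 for OPCL1 and 0.50 ± 0.22 for CYP94C1. Without homozygous replicate 2 it was 0.64 for VSP1, 0.55 for TIFY7, 0.33 for CLH1 and 0.18 for OPCL1, and for CYP94C1 it was 0.20 without wild type replicate 1 and 0.87 without wild type replicate 2. Homozygous replicate 2 held 1.75 times as much OPCL1, 1.81 times as much TIFY7, 1.91 times as much VSP1 and 1.92 times as much CLH1 as homozygous replicate 1. With homozygous replicate 1 alone over the wild-type mean, the ratios were 1.65 for VSP1, 1.56 for TIFY7, 1.35 for CLH1 and 1.21 for OPCL1. VSP1 and CLH1 met the rule with TMM scaling, and TIFY7, OPCL1 and CYP94C1 did not. Over the whole pathway list, 30 of the 35 tested genes were higher and 5 lower in homozygous than in wild-type siliques, with a median log2 difference of 0.28 beside 0.01 over all genes, and edgeR called 0 in either direction. Without homozygous replicate 2 the median was 0.13, with 26 higher and 9 lower, and without homozygous replicate 1 it was 0.43. Without both homozygous replicate 2 and wild type replicate 1, the median was 0.097, with 21 higher and 14 lower. With all 6 libraries, the median of heterozygous against wild-type siliques was 0.07, with 22 higher and 13 lower.

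These 3 genes of the pathway outside the members were also highest in homozygous replicate 2. VSP2, the close paralogue of VSP1, with which it may share reads, stood at 899.7 and 2218 CPM in homozygous siliques, 986 and 603 CPM in heterozygous siliques, against 367 and 440.1 CPM in wild type, so that it missed the order through heterozygous replicate 1, which lay above homozygous replicate 1. LOX2, a lipoxygenase at the start of the pathway, stood at 823 and 1264 CPM in homozygous siliques, 745 and 655 CPM in heterozygous siliques, against 714 and 581 CPM in wild type. MYC2, the transcription factor of the response, stood at 59.4 and 105 CPM in homozygous siliques, 59.5 and 62.4 CPM in heterozygous siliques, against 59.5 and 46.8 CPM in wild type, with homozygous replicate 2 alone apart from the rest. Of the shorter list of jasmonate and defence genes, 17 of 18 tested genes were higher in homozygous than in wild-type siliques. Their median log2 difference of 0.53 ran from 0.21 without homozygous replicate 2 to 0.77 without homozygous replicate 1. Without homozygous replicate 2, 13 of the genes were higher and 5 lower. When heterozygous siliques were set against wild type, the median was 0.08, with 11 higher and 7 lower.

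**Figure D3:**
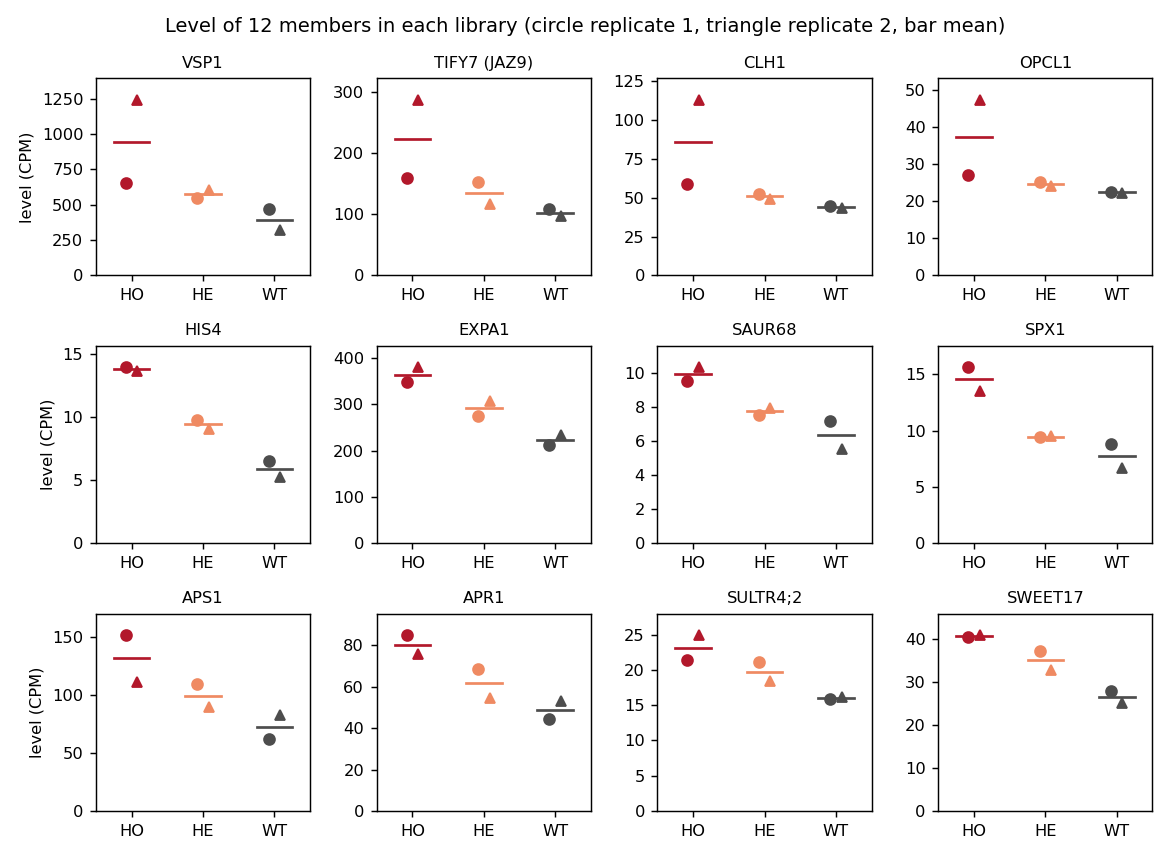
Level of 12 members in each library (CPM, axes from 0), with homozygous (HO), heterozygous (HE) and wild-type (WT) siliques from left to right; circles are replicate 1, triangles replicate 2 and bars the mean of the 2 libraries. In VSP1, TIFY7, CLH1 and OPCL1 the triangle of homozygous siliques stands far above the circle, and in HIS4 and SWEET17 the 2 homozygous libraries nearly coincide.

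Across all members such a spread was uncommon. The homozygous libraries differed by at least 1.3 times in 11 members, with replicate 2 the higher in 8 and replicate 1 the higher in 3. The others of the 8 were ANNAT4, NSP5, ATBFRUCT1 and AT2G42247, and the 3 were APS1, AT3G56020 and AT5G47930. In 143 of the 161 members, homozygous replicate 1 alone was at least 1.3 times the wild-type mean. The rule used these same values and favours such a count, so it describes the choice. Shares over all genes are not given here for these counts. ANNAT4, an annexin, a protein that binds membranes in the presence of calcium, stood at 37.4 and 57.7 CPM in homozygous siliques, 35.4 and 29.1 CPM in heterozygous siliques, against 21.5 and 28.6 CPM in wild type. ATBFRUCT1, a cell wall invertase that splits sucrose, stood at 8.26 and 12.8 CPM in homozygous siliques, 7.28 and 7.48 CPM in heterozygous siliques, against 5.65 and 5.83 CPM in wild type. NSP5, a nitrile-specifier protein that acts on the breakdown products of glucosinolates, stood at 21.1 and 27.6 CPM in homozygous siliques, 20.7 and 20.1 CPM in heterozygous siliques, against 11.6 and 15.0 CPM in wild type. For these 3 genes homozygous replicate 1 lay not far above the heterozygous libraries, and homozygous replicate 2 stood clear of them. ATBFRUCT1 met the rule with TMM scaling, and ANNAT4 and NSP5 did not.

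**Figure D4:**
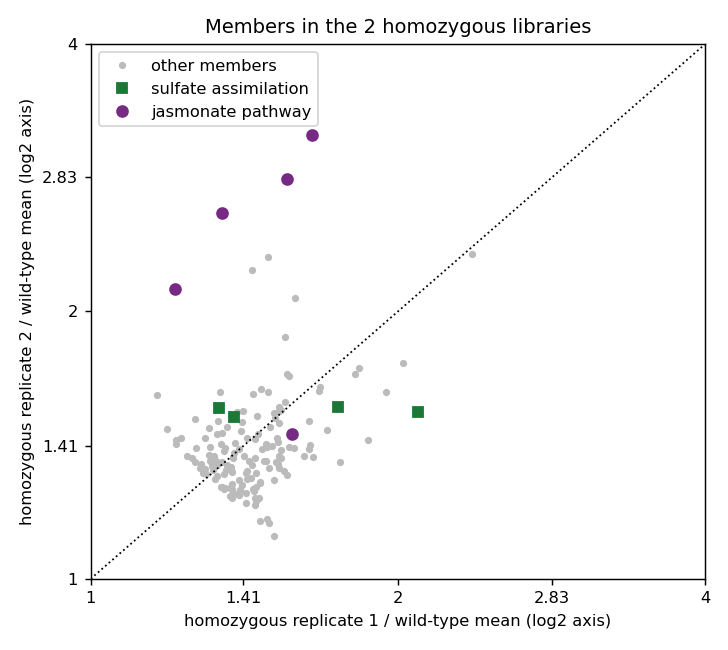
Each member's level in homozygous replicate 1 (horizontal) and replicate 2 (vertical), both divided by the wild-type mean, on log2 axes, with jasmonate pathway members as circles and sulfate assimilation members as squares. Jasmonate members other than CYP94C1 lie far above the dotted line of equality, by 1.75 to 1.92 times, and APS1 lies below it.

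Sulfate assimilation gave 4 members. Plants activate sulfate with ATP sulfurylase, reduce the product with APS reductase and then sulfite reductase, and build the sulfide into cysteine; the vacuole stores sulfate that SULTR4 transporters release. On a list of sulfate uptake and assimilation genes drawn up after values had been seen, 4 of 26 genes at the mean level were members. Of all genes at that level 1.01% were, and because the list followed the values, nothing is read from the count. SULTR4;2, an exporter of sulfate from the vacuole, stood at 21.4 and 24.95 CPM in homozygous siliques, 21.1 and 18.4 CPM in heterozygous siliques, against 15.9 and 16.1 CPM in wild type. APS1, an ATP sulfurylase, stood at 151 and 111 CPM in homozygous siliques, 109 and 89.1 CPM in heterozygous siliques, against 62.3 and 82.3 CPM in wild type. Both APS1 and SULTR4;2 had a heterozygous replicate 1 value just under the lower homozygous value. APS3, another ATP sulfurylase, stood at 17.6 and 19.4 CPM in homozygous siliques, 17.3 and 15.4 CPM in heterozygous siliques, against 12.6 and 13.0 CPM in wild type. APR1, an APS reductase, stood at 84.9 and 75.8 CPM in homozygous siliques, 68.5 and 54.7 CPM in heterozygous siliques, against 44.3 and 52.9 CPM in wild type. APS1 and APR1 were highest in homozygous replicate 1, where most of the jasmonate genes were highest in replicate 2.

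The log2 difference of homozygous against wild-type siliques was 0.76 ± 0.22 (SE) for APS1, 0.63 ± 0.18 for APR1, 0.45 ± 0.15 for APS3 and 0.45 ± 0.15 for SULTR4;2. None of the 4 met the rule with TMM scaling. Of 33 tested genes of the list, 26 were higher and 7 lower in homozygous than in wild-type siliques, with a median log2 difference of 0.11, and edgeR called 0. Without wild type replicate 2 that median was 0.27. Set against wild type, heterozygous siliques had a median of 0.19 over the list, above the homozygous one, with 24 higher and 9 lower. AKN2, a kinase that phosphorylates activated sulfate, was not a member, with 36.6 and 25.2 CPM in homozygous siliques, 20.9 and 15.9 CPM in heterozygous siliques, against 9.54 and 18.2 CPM in wild type, since the wild-type and heterozygous libraries overlapped. SIR, the sulfite reductase, stood at 315 and 307 CPM in homozygous siliques, 293 and 280.1 CPM in heterozygous siliques, against 273 and 270.4 CPM in wild type, in the stepwise order but with a ratio under 1.3.

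Histone and DNA replication genes formed the next group. Histone H4 is part of the core of every nucleosome, and most of its synthesis accompanies DNA replication. Of the 8 genes on the histone H4 list, all at the mean level, 3 were members, where 1.01% of all genes at that level were. The list was chosen with earlier results of these data known, and its copies may share reads, so nothing is read from this count. HIS4, which the gene table names as histone H4, had the second largest ratio of all members, 2.34, and stood at 14.0 and 13.7 CPM in homozygous siliques, 9.80 and 9.06 CPM in heterozygous siliques, against 6.54 and 5.27 CPM in wild type. AT3G45930 stood at 18.5 and 16.0 CPM in homozygous siliques, 14.6 and 15.5 CPM in heterozygous siliques, against 11.0 and 10.8 CPM in wild type. AT3G46320 stood at 15.0 and 15.4 CPM in homozygous siliques, 13.9 and 12.7 CPM in heterozygous siliques, against 10.01 and 9.41 CPM in wild type. In HIS4 each genotype formed a tight pair with wide gaps between pairs, whereas in the other two the heterozygous mean lay nearer to the homozygous than to the wild-type mean.

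The log2 difference of homozygous against wild-type siliques was 1.15 ± 0.16 (SE) for HIS4, 0.58 ± 0.14 for AT3G45930 and 0.56 ± 0.15 for AT3G46320, and all 3 met the rule with TMM scaling too. Genes on this list encode near-identical proteins, and each of the 3 had values that were not whole numbers, so reads may have been divided among copies and the single genes are uncertain. Over the 8 genes, 7 were higher and 1 lower in homozygous than in wild-type siliques, with a median log2 difference of 0.21. The median of all tested genes was 0.01, and edgeR called 0 of the 8. Without homozygous replicate 1 the list's median was 0.19, with 5 higher and 3 lower. Without wild type replicate 1 it was 0.31, with 6 higher and 2 lower. For heterozygous against wild-type siliques the median was 0.14, with 6 higher and 2 lower. AT1G07660, also on the list, stood at 13.6 and 13.6 CPM in homozygous siliques, 13.4 and 13.0 CPM in heterozygous siliques, against 13.8 and 14.2 CPM in wild type, with both wild-type libraries slightly above both homozygous ones. Among 21 histone H2A and H2B genes at the mean level, HTA13, an H2A gene, was the single member, with 19.4 and 19.2 CPM in homozygous siliques, 17.9 and 16.8 CPM in heterozygous siliques, against 12.9 and 15.2 CPM in wild type. HTA13 did not meet the rule with TMM scaling. Of 8 histone H3 genes, 0 were members. Beside 1.01% of all genes at the mean level, neither of these counts is a result about its list.

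DNA replication genes, on a list drawn up after values had been seen, gave 3 members of 29 at the mean level, beside 1.01% of all genes there. As the list followed the values, nothing is read from this count. RFC2, a subunit of the clamp loader, stood at 12.5 and 11.9 CPM in homozygous siliques, 9.51 and 9.85 CPM in heterozygous siliques, against 8.99 and 8.57 CPM in wild type. POLA3, a subunit of the polymerase alpha and primase complex, stood at 12.8 and 10.1 CPM in homozygous siliques, 9.84 and 9.91 CPM in heterozygous siliques, against 9.71 and 7.71 CPM in wild type. TK1a, a thymidine kinase that salvages a DNA precursor, stood at 7.86 and 6.79 CPM in homozygous siliques, 5.47 and 5.25 CPM in heterozygous siliques, against 4.72 and 4.88 CPM in wild type. The gaps between the heterozygous and wild-type libraries were narrow for all 3 genes, and RFC2 was the one that met the rule with TMM scaling. Of the 31 tested genes of the list, 18 were higher and 13 lower in homozygous than in wild-type siliques, with a median log2 difference of 0.03 that ran from -0.02 without wild type replicate 2 to 0.07 without wild type replicate 1, and edgeR called 0.

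Genes of cell expansion and auxin response came next. SAUR genes encode short proteins that auxin induces and that promote cell expansion, and expansins loosen cell walls. Of 30 SAUR genes at the mean level, 4 were members, where 1.01% of all genes at that level were. This list too was chosen with earlier results of these data known, so nothing is read from the count. SAUR63 stood at 8.51 and 8.50 CPM in homozygous siliques, 6.19 and 6.62 CPM in heterozygous siliques, against 5.78 and 5.44 CPM in wild type. SAUR68 stood at 9.52 and 10.4 CPM in homozygous siliques, 7.57 and 7.96 CPM in heterozygous siliques, against 7.21 and 5.55 CPM in wild type. AT1G29460, which is SAUR65, stood at 12.3 and 13.8 CPM in homozygous siliques, 11.2 and 11.0 CPM in heterozygous siliques, against 9.32 and 7.78 CPM in wild type. The homozygous libraries nearly coincided in SAUR63, and all 3 genes lie in a SAUR cluster on chromosome 1 and met the rule with TMM scaling. AT4G38860, which is SAUR16 on chromosome 4, stood at 45.0 and 45.3 CPM in homozygous siliques, 40.0 and 38.8 CPM in heterozygous siliques, against 31.7 and 35.2 CPM in wild type, and did not meet the rule with TMM scaling. SAUR63 and SAUR68 had values that were not whole, so clustered copies may have shared reads. Over the 62 tested SAUR genes, 37 were higher and 25 lower in homozygous than in wild-type siliques, with a median log2 difference of 0.11 that was 0.01 without homozygous replicate 2 and 0.02 without wild type replicate 1. Between heterozygous and wild-type siliques the SAUR median was 0.14, with 39 higher and 23 lower, and so lay above the homozygous one.

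EXPA1, an expansin, was 1 of 15 expansins at the mean level to be a member and stood at 348 and 380.4 CPM in homozygous siliques, 275 and 308 CPM in heterozygous siliques, against 213 and 234 CPM in wild type. Its 3 genotypes were separated by gaps wider than the spread within each, and its log2 difference of homozygous against wild-type siliques was 0.61 ± 0.13 (SE). Over the 20 tested expansins, 9 were higher and 11 lower, with a median log2 difference of -0.02 that ran from -0.13 without homozygous replicate 2 to 0.17 without homozygous replicate 1. MYB58, an activator of lignin genes, was the single member among 42 MYB genes, with 10.8 and 8.99 CPM in homozygous siliques, 7.33 and 7.85 CPM in heterozygous siliques, against 6.43 and 4.65 CPM in wild type. AGL87, a MADS-box gene and the single member among 26, stood at 31.6 and 27.0 CPM in homozygous siliques, 25.1 and 23.9 CPM in heterozygous siliques, against 22.1 and 16.5 CPM in wild type. Both met the rule with TMM scaling, and in both the homozygous replicate 1 value was the highest of the 6. Single members on lists of this size, beside 1.01% of all genes at the mean level, are not results about the lists.

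SPX1 and SPX2 encode small proteins that hold back the phosphate starvation factor PHR1 when phosphate is ample, and their genes are induced by phosphate starvation. SPX1 stood at 15.6 and 13.5 CPM in homozygous siliques, 9.40 and 9.51 CPM in heterozygous siliques, against 8.77 and 6.69 CPM in wild type, a log2 difference of 0.83 ± 0.16 (SE) between homozygous and wild-type siliques. SPX2 stood at 14.2 and 13.3 CPM in homozygous siliques, 13.2 and 11.9 CPM in heterozygous siliques, against 11.1 and 9.95 CPM in wild type. The homozygous libraries of SPX1 stood clear of all others, and those of SPX2 only just did. On a list of phosphate starvation genes drawn up after values had been seen, these were the 2 members among 11 genes at the mean level. The share over all genes at that level was 1.01%, and as the list followed the values, nothing is read from the count. In this list 6 of 15 tested genes were higher and 9 lower in homozygous than in wild-type siliques. Their median log2 difference of -0.09 ran from -0.26 without homozygous replicate 1 to -0.02 without homozygous replicate 2.

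FRO3, a mitochondrial ferric reductase, stood at 13.9 and 13.1 CPM in homozygous siliques, 9.51 and 9.16 CPM in heterozygous siliques, against 6.26 and 8.93 CPM in wild type. SWEET17, a fructose transporter of the vacuole and 1 of 22 sugar transporters at the mean level, stood at 40.5 and 40.9 CPM in homozygous siliques, 37.2 and 32.8 CPM in heterozygous siliques, against 27.9 and 25.1 CPM in wild type. In FRO3 the heterozygous libraries were nearly equal and wild type replicate 2 lay close beneath them, and in SWEET17 the homozygous libraries nearly coincided. SWEET17 met the rule with TMM scaling and FRO3 did not. Further transporters among the members, picked out here after their values were seen, were NRAMP3, which carries iron and manganese out of the vacuole, CAX3, a calcium and proton exchanger of the vacuole, KUP11, of the potassium transporter family, and PROT2, a proline transporter. NRAMP3 stood at 27.8 and 26.0 CPM in homozygous siliques, 23.7 and 24.5 CPM in heterozygous siliques, against 16.6 and 19.9 CPM in wild type and met the rule with TMM scaling. CAX3, KUP11 and PROT2 did not, and their ratios were 1.35, 1.45 and 1.42. The 2 glutathione transferases that were members, of 26 at the mean level, were GSTU7 and GSTU18. Beside 1.01% of all genes at that level, neither this count nor that of the sugar transporters is a result about its list. GSTU7 stood at 8.88 and 9.90 CPM in homozygous siliques, 8.06 and 6.58 CPM in heterozygous siliques, against 6.40 and 5.70 CPM in wild type. GSTU18 stood at 20.4 and 18.5 CPM in homozygous siliques, 16.9 and 17.9 CPM in heterozygous siliques, against 15.7 and 14.1 CPM in wild type. GSTU7 met the rule with TMM scaling and GSTU18 did not.

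The members with the most counts per gene, which CPM does not correct for gene length, were mostly small differences. Besides VSP1, EXPA1, TIFY7 and APS1, they were DGAT3, a soluble acyltransferase of triacylglycerol synthesis, P5CS1, the enzyme that starts proline synthesis, UBC2, a ubiquitin-conjugating enzyme, UBL5, a ubiquitin-like protein, FAB1C, a phosphatidylinositol phosphate kinase, and AT1G52300, AT1G09590 and AT5G39220. DGAT3 stood at 206 and 197 CPM in homozygous siliques, 187 and 159.9 CPM in heterozygous siliques, against 131 and 148 CPM in wild type. P5CS1 stood at 166 and 151 CPM in homozygous siliques, 141 and 149.5 CPM in heterozygous siliques, against 134 and 103 CPM in wild type. Homozygous replicate 1 was the highest library of both, and heterozygous replicate 2 of P5CS1 lay just under homozygous replicate 2. UBC2 stood at 123 and 113 CPM in homozygous siliques, 110.2 and 103 CPM in heterozygous siliques, against 85.4 and 93.8 CPM in wild type. UBL5 stood at 112 and 109.8 CPM in homozygous siliques, 98.5 and 106 CPM in heterozygous siliques, against 86.3 and 82.1 CPM in wild type. FAB1C stood at 119 and 129.7 CPM in homozygous siliques, 114 and 107 CPM in heterozygous siliques, against 103 and 87.1 CPM in wild type. In these 3 genes the highest heterozygous value came close to the lowest homozygous value, and their ratios were 1.32, 1.32 and 1.31. None of these 3 met the rule with TMM scaling, nor did DGAT3 or P5CS1. Of 64 ribosomal protein genes of the list at the mean level, RPS15AD and RS27A were members, with ratios of 1.44 and 1.43. Beside 1.01% of all genes at that level, this is not a result about the list. AT1G21440, called by DESeq2, stood at 97.3 and 86.4 CPM in homozygous siliques, 77.0 and 78.7 CPM in heterozygous siliques, against 63.9 and 59.1 CPM in wild type. AT3G61210, the last of the 12 largest ratios, stood at 9.46 and 8.86 CPM in homozygous siliques, 6.41 and 7.13 CPM in heterozygous siliques, against 5.57 and 4.85 CPM in wild type. In both genes the 3 genotypes were clearly apart.

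Silencing genes and tissue markers held 0 members, which at a share of 1.01% over all genes at the mean level is not a result about lists of this size. Of the lists drawn up for the ARGONAUTE family (9 genes at the mean level), RNA-directed DNA methylation (22), DNA methylation and demethylation (14) and miRNA and post-transcriptional silencing (13), 0 genes were members. AGO2 stood at 47.2 and 57.9 CPM in homozygous siliques, 51.1 and 48.8 CPM in heterozygous siliques, against 45.0 and 41.6 CPM in wild type, with homozygous and heterozygous libraries overlapping. The 7 lists of tissue markers, with 3 to 23 genes at the mean level, held 0 members.

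In features that the rule did not use, members resembled other genes at the same mean level in several respects and differed in a few, all given as shares with no test. Of the members, 159 were protein coding and 2, AT1G29357 and AT2G42247, were long non-coding RNAs. Chromosome 2 held 20.5% of members beside 15.3% of the 15970 genes, and chromosome 5 held 17.4% beside 23.5%, while chromosomes 1, 3 and 4 differed by less than 1 percentage point. Among the 15970 genes taken in chromosomal order, no member was the next gene to another. The median gene length was 2165 bp in members and 2551 bp in all genes with a position. Values that were not whole numbers occurred in 38.5% of members and 44.6% of all genes, and 29.8% of members overlapped another gene, beside 32.2%, where reads of the 2 genes cannot be told apart without strand.

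The sRNA libraries were not used by the rule, and each was a single library without replication. They were sRNA recovered with FLAG-tagged AGO3 from ago3-3 plants carrying pAGO3:FHA-AGO3, sRNA from a control, in which wild-type siliques were treated with the same antibody, and total sRNA of wild-type siliques, with 37189850, 25613847 and 40262802 reads. The table counts reads in windows of 500 bp, and a gene was given the windows it overlaps. Of the 161 members, 159 had at least 1 read in the AGO3 immunoprecipitate. The median over members was 0.914 reads-per-million (RPM) in the AGO3 immunoprecipitate, 1.60 RPM in the control and 0.571 RPM in total sRNA, beside 1.05, 1.95 and 0.770 RPM over 15911 genes at the mean level with a position. The ratio of AGO3 to control had a median of 0.558 over the 151 members with at least 20 reads in the 2 immunoprecipitates together, and of 0.564 over 15124 such genes. The medians of the members lay a little below those of all genes in each library, and the median ratio lay beside theirs. These RPM are not corrected for gene length, and members were shorter, with a median of 2165 bp against 2551 bp. The part of gene length in the lower medians was not tested.

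Enrichment of a window meant 20 or more AGO3 reads together with an RPM plus 1 of 4 or more times the control's. Such a window overlapped 2 members, 1.24%, beside 0.936% of all genes at the mean level. The first was CYP94C1, through the window chr2:11811001-11811500 (TAIR10), with 365 reads in the AGO3 immunoprecipitate, 17 in the control and 27 in total sRNA. That window was the edge of a run of 5 adjoining enriched windows, to position 11813500, which together held 6088, 41 and 209 reads. Its peak, at 11812501 to 11813000, held 3691, 2 and 89 reads. Over all 5 windows that CYP94C1 overlaps, the AGO3 immunoprecipitate held 4.50 times the control RPM (exact interval 3.67 to 5.56).

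The second was AT2G24580, through the window chr2:10446001-10446500, with 199 reads in the AGO3 immunoprecipitate, 4 in the control and 30 in total sRNA. It too was the edge of a run, of 3 enriched windows to position 10447500 with 1051, 27 and 151 reads. Over the windows of the gene the ratio was 2.58 (2.02 to 3.33). In mRNA, AT2G24580 stood at 22.3 and 19.5 CPM in homozygous siliques, 17.6 and 18.9 CPM in heterozygous siliques, against 13.2 and 17.2 CPM in wild type. The steps of this gene were small, with wild type replicate 2 close under the heterozygous libraries, and neither it nor CYP94C1 met the rule with TMM scaling. In both cases the reads in the run outside the gene's own window outnumbered those within it.

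Among the remaining members the highest ratios of at least 20 reads were 4.13 for AT2G04080 (interval 2.28 to 8.11; 78 AGO3 and 13 control reads), 3.67 for AT3G45930 (2.44 to 5.70; 149 and 28 reads) and 3.54 for CLH1 (2.55 to 5.00; 226 and 44 reads). The most AGO3 reads lay over AT4G14342, 46.6 RPM in the AGO3 immunoprecipitate, 33.9 RPM in the control and 35.8 RPM in total sRNA. VSP1, the member with the largest mRNA ratio, had the most total sRNA, 55.0 RPM, with 24.1 RPM in the AGO3 immunoprecipitate and 16.2 RPM in the control. Intervals cover counting error only, as reads are not independent molecules, and a read that matches several places may be counted in a window it did not come from.

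**Figure D5:**
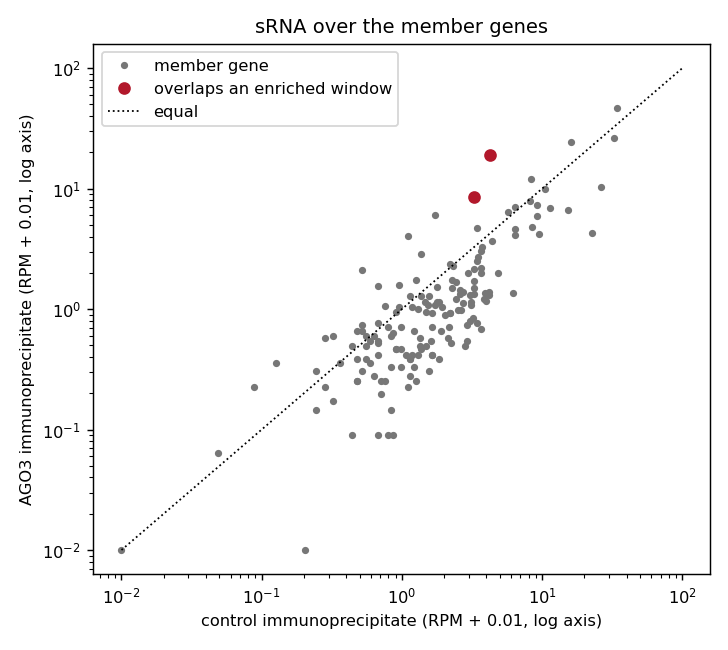
sRNA over the windows of each member in the AGO3 immunoprecipitate (vertical) against the control (horizontal), as RPM plus 0.01 on log axes; the dotted line marks equal values. Most members lie below the line, with a median ratio of 0.558, and the 2 members that overlap an enriched window, CYP94C1 and AT2G24580, lie above it.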

How the data were processed

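The mRNA table holds the authors' deposited estimated counts per gene, 1 column per library, not scaled to depth; 7.88% of its values were not whole numbers. The sRNA table holds the authors' deposited counts of reads in windows of 500 bp. The submitters' processing notes name HISAT2, featureCounts, Bowtie and the build TAIR10; the sources used here do not give versions, the strand setting or how reads that match several places were handled.

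Members were found on CPM of the column total. Estimated counts were rounded to whole numbers for the tests. Under R 4.3.3, edgeR 4.0.16 was used for its quasi-likelihood test on all 6 mRNA libraries, after TMM scaling and filterByExpr, with genotype as the only term, leaving 3 residual degrees of freedom. P-values were adjusted after Benjamini and Hochberg, with 0.05 as the limit, and SEs of log2 differences come from that fit. It relied on limma 3.58.1. DESeq2 1.42.0 was the alternative tool. The smallest mRNA library held 30338416 counts and the largest 36258980, so that 3 counts amount to 0.0989 and 0.0827 CPM. Gene positions, names and classes came from a RefSeq table of assembly TAIR10.1, matched by locus tag for 32548 of 34262 rows and for all 161 members, and used only to place genes at sRNA windows and for gene length, chromosome and overlap; printed coordinates are those of the sRNA table, counted from 1. As a check of that placing, the median total sRNA over 326 miRNA genes was 278 reads in place and 11.5, 4 and 3 reads after moves of 500, 1000 and 5000 bp. The intervals are exact binomial at 95%. Tables were handled in Python 3.11.15 with pandas 2.3.3 and numpy 2.4.6, intervals came from scipy 1.17.1 and plots from matplotlib 3.10.9. The scripts were tested on simulated data.

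The members and the gene lists were chosen with earlier results of these data known, and 4 lists (sulfate, jasmonate pathway, phosphate starvation, DNA replication) were added after the members' values had been seen. The genes named are AGO3, the 12 members with the largest ratio, the 12 with the highest mean CPM, members called by either tool, up to 4 members per list, members at an enriched window and the genes on either side of the 1.3 ratio. The other genes named were picked after their values were seen. A planned search for promoter motifs was not run and sequences are not used here.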

Additional observations from a re-analysis of the deposited data

How the results depend on the processing

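The number of members depended on scaling and on the libraries. It was 161 as reported, 53 with TMM, 56 with DESeq2 size factors and 104 without structural RNA. A ratio of 1.2 gave 340 and one of 1.5 gave 37, of which 24 met the rule with TMM. Leaving out each library in turn, with the rule on the other 5, gave 247 (without wild type replicate 2) to 719 (without wild type replicate 1), and leaving out both libraries that stand apart, homozygous replicate 2 and wild type replicate 1, an alternative chosen after seeing the data, gave 1519, 143 of them members. A rule over fewer libraries is easier to meet.

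Genes called by edgeR for homozygous against wild type numbered 0, 4 with no filter on low counts, 76 by DESeq2, 0 to 3 without 1 library (3 without wild type replicate 2) and 54 without the 2 libraries that stand apart. For heterozygous against wild type they numbered 0, 18 by DESeq2, 0 to 4 (4 without wild type replicate 2) and 22; for homozygous against heterozygous siliques 0, 23 by DESeq2, 0 to 1 (1 without either wild-type library) and 5. The members' median log2 difference for homozygous against wild type was 0.36 to 0.45 without 1 library. That it stayed above 0 was largely set by the choice of the members.

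Samples sharing a replicate number did not deviate together (correlations -0.09 for homozygous with heterozygous, -0.36 for homozygous with wild type, -0.04 for heterozygous with wild type). The labels do not say whether the numbers pair the samples, and these correlations cannot settle it. The replicate block left 0 calls in each comparison and medians of 0.39, 0.22 and 0.18. A fit of the 4 homozygous and wild-type libraries alone gave 0 calls, and the same 4 libraries with crossed numbers as a block, also chosen after seeing the data, gave 136.

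Members at an enriched window numbered 5 at a ratio of 2 (3.11%, beside 3.56% of all genes) and 0 at a ratio of 8 (beside 0.383%). They numbered 2 with 1 kb added on either side of the gene (1.24%, beside 2.14%) and 1 against total sRNA (0.621%, beside 1.92%). In the main setting the members' share was the higher one (1.24%, beside 0.936%). With 0 to 5 members per setting, all from the same single libraries, nothing about the members is read from these shares. The share of genes chosen on replicate 1 that had the order in replicate 2 was 9.22% with TMM (17.9% of all genes) and 28.7% with no minimum ratio (32.1%); of those chosen on replicate 2 it was 12.2% (21.3%) and 22.2% (24.9%). Of 48 named members, 16 had a log2 difference of homozygous against wild-type siliques that moved by over 1.5 times without 1 library, 6 of them without homozygous replicate 2, and 0 changed sign. They were AT1G09590, CLH1, OPCL1, FRO3, DGAT3, VHA-E3, TIFY7, VSP1, POLA3, ATBFRUCT1, HTA13, UBC2, AT2G24580, CYP94C1, ANNAT4 and AT4G38860. The rule puts both homozygous values above both wild-type values, so the lack of sign changes was largely set by the choice. The gene lists' medians without each library were computed after seeing the data. With 2 libraries per genotype and 1 per sRNA sample, small steps lie within counting error.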
